A study of Mus musculus with 6 samples.

Results

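Interleukin-2 (IL-2), the chains of its receptor, the IL-15-binding chain Il15ra, the receptor kinase JAK3 and the STAT5 transcription factors were followed in activated mouse CD4+ T cells. They form a set of 8 genes, namely Il2, Il2ra, Il2rb, Il2rg, Il15ra, Jak3, Stat5a and Stat5b. A gene was measured where the platform annotation gives it a probe set that carries no other symbol, which held for 6 of the 8 genes among 22180 genes in all. Each of the 6 had a single such probe set. The probe set listed for Jak3 also carries another gene, and Il2rg has no probe set listed in the annotation used here, so neither has a value. The cells were splenic CD4+ T cells taken up by magnetic beads and activated for 12 hours in RPMI with 10% serum by anti-CD3 and anti-CD28 antibodies, both at 1 µg/ml. The 3 groups held 2 arrays each. ConCM cells received control conditioned medium, IL6_ConCM cells the same medium with IL-6 at 20 ng/ml, and PlGFCM cells medium from HEK-293 clones, derived from human embryonic kidney, that overexpress PlGF2, a form of placental growth factor. The labels give no strain, age or sex of the mice and do not state if replicates are separate animals or cultures, so every p-value reflects the spread between these arrays alone, which may be technical.

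IL-2 is the growth factor that activated T cells secrete and then respond to. Its high-affinity receptor joins the alpha chain Il2ra (CD25), which binds IL-2 but does not signal, with the beta chain Il2rb, shared with the IL-15 receptor, and the common gamma chain Il2rg, shared with the receptors for IL-4, IL-7, IL-9, IL-15 and IL-21. JAK1 on the beta chain and JAK3 on the gamma chain phosphorylate STAT5A and STAT5B, which then enter the nucleus and drive genes of survival and division. In CD4+ T cells the pathway is also known for sustaining regulatory T cells and for restraining Th17 and follicular helper cells.

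The promoter of Il2 is shown because the ligand gene is the target of the factors counted further on, and that of Il2ra because its product sets the affinity of the receptor. Both are the 250 bases before the RefSeq start on GRCm38.p6, printed 5′ to 3′ on the strand of the gene, chr3:37125955-37126204 on the minus strand for Il2 and chr2:11642542-11642791 on the plus strand for Il2ra. Capitals mark the letters GGAAA, the core that NFAT factors bind, on either strand, and in Il2 also TATAAA. No marked motifs overlap.
Il2: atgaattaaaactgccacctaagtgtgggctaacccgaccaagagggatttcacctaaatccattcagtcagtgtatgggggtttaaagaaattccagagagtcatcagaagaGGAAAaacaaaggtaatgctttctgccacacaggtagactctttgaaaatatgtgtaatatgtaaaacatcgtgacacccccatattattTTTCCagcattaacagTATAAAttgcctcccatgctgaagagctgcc
Il2ra: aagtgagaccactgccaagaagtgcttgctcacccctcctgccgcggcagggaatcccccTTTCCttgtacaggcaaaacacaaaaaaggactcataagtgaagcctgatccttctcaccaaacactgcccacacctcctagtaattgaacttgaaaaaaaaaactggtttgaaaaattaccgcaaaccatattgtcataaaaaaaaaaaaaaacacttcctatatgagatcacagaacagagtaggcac
The Il2 window held 2 matches to GGAAA, at positions -137 to -133 and -47 to -43 from the start, and TATAAA at -31 to -26. The Il2ra window held 1 match to GGAAA, at -190 to -186. Of the 32851 RefSeq promoters of the same length, 55.6% held GGAAA and 12.4% held TATAAA on either strand, so the former is common. Neither window held the AP-1 letters TGANTCA, found in 6.75% of promoters, or the STAT letters TTCNNNGAA, found in 7.02%, which says only that these letters are not in these windows.

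Stat5a and Stat5b lie next to each other on chromosome 11, on opposite strands, with 346 bases between the annotated genes. RefSeq gives 2 start regions for each, with starts at 100859656 and 100860484 for Stat5a and at 100850581 and 100822570 for Stat5b. All 4 starts, and the windows printed below, lie inside the annotated genes and not in the gap between them. The longest stretch that a Stat5a and a Stat5b start region share is 16 bases, shown in capitals within 30 bases, because these paralogs had the largest changes among the members in PlGFCM against ConCM. The windows are chr11:100860445-100860474 on the plus strand for Stat5a and chr11:100822571-100822600 on the minus strand for Stat5b.
Stat5a: tttgaggAGGAAATCGCTGCTCTctgctcc
Stat5b: ttttagaAGGAAATCGCTGCTCTttgcttc
The shared bases begin at position -32 from the start in Stat5a and -23 in Stat5b, and include a GGAAA in both. The shared stretch was sought from 250 bases before to 50 bases after each start, and motifs only in the 250 bases before it. Those 250 bases held no TTCNNNGAA or TGANTCA at any of the 4 starts. The encoded proteins are close paralogs, and whether either probe set also binds the other transcript was not tested.

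Levels are the deposited log2 values, and a change is a difference of group means on that scale, tested with limma on all 6 arrays. A gene was said to pass where its Benjamini-Hochberg adjusted p over the 22180 genes was under 0.05. Array medians lay between 5.47 and 5.51. The markers of the labelled cell type were high on all 6 arrays, with Cd3e, a chain of the T cell receptor complex, at 11.84 to 12.17 and Cd4 at 11.13 to 11.40. PlGFCM replicate 2 stood apart by Xist, a transcript of female cells, at 8.38 against 3.58 to 3.95 on the other 5 arrays. Its Y-linked transcripts were lower than on the other arrays but near them, with Uty at 7.50 against 7.77 to 8.14, Kdm5d at 7.07 against 7.42 to 7.77 and Eif2s3y at 8.59 against 8.90 to 9.14. The spread within PlGFCM thus includes this difference, and whether its arrays differ in the donors or their sex was not tested. For the 6 measured genes, log2 changes without that array are given beside the comparisons with PlGFCM. They are not given for genes of the lists further on, where only the fate of calls is stated. As these are cell populations, fewer cells of a type and less RNA per cell cannot be told apart.

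The STAT5 genes had the largest log2 changes of the 6 genes in both comparisons with PlGFCM, and the smallest in IL6_ConCM against ConCM. Stat5a, which encodes STAT5A, was at 9.48 and 9.56 with ConCM, 9.84 and 9.97 with PlGFCM and 9.46 and 9.66 with IL6_ConCM. Both PlGFCM arrays lay above the other 4, and the ConCM and IL6_ConCM arrays overlapped. The log2 change was 0.39 ± 0.08 (SE) in PlGFCM against ConCM, a 1.31-fold difference with a 95% interval of 1.15 to 1.49. Its unadjusted limma p was 0.000729 and its adjusted p 0.0908, so it did not pass, and 177 genes had a smaller p. Against IL6_ConCM the log2 change was 0.34 ± 0.08 (limma adjusted p = 0.486).

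Stat5b, which encodes the paralog STAT5B, was likewise highest in PlGFCM, with a narrower spread within groups. Its log2 level was 9.71 and 9.69 with ConCM, 9.95 and 9.94 with PlGFCM and 9.68 and 9.71 with IL6_ConCM. The PlGFCM arrays again lay above all others, while ConCM and IL6_ConCM differed by less than the spread of IL6_ConCM. The log2 change was 0.24 ± 0.07 (SE) in PlGFCM against ConCM, or 1.18-fold with a 95% interval of 1.07 to 1.31, and 0.25 ± 0.07 against IL6_ConCM. Neither passed, with limma adjusted p of 0.230 and 0.604. In IL6_ConCM against ConCM the log2 changes were 0.04 for Stat5a and -0.0049 for Stat5b, with 95% intervals of -0.14 to 0.23 and -0.15 to 0.14. The comparisons of PlGFCM with the other media share the PlGFCM arrays, so they are not independent of each other. Without PlGFCM replicate 2, the log2 changes against ConCM were 0.32 for Stat5a (limma adjusted p = 0.383) and 0.25 for Stat5b (0.406). Against IL6_ConCM they were 0.28 and 0.25 without that array (limma adjusted p = 0.725 and 0.666).

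**Figure D1:**
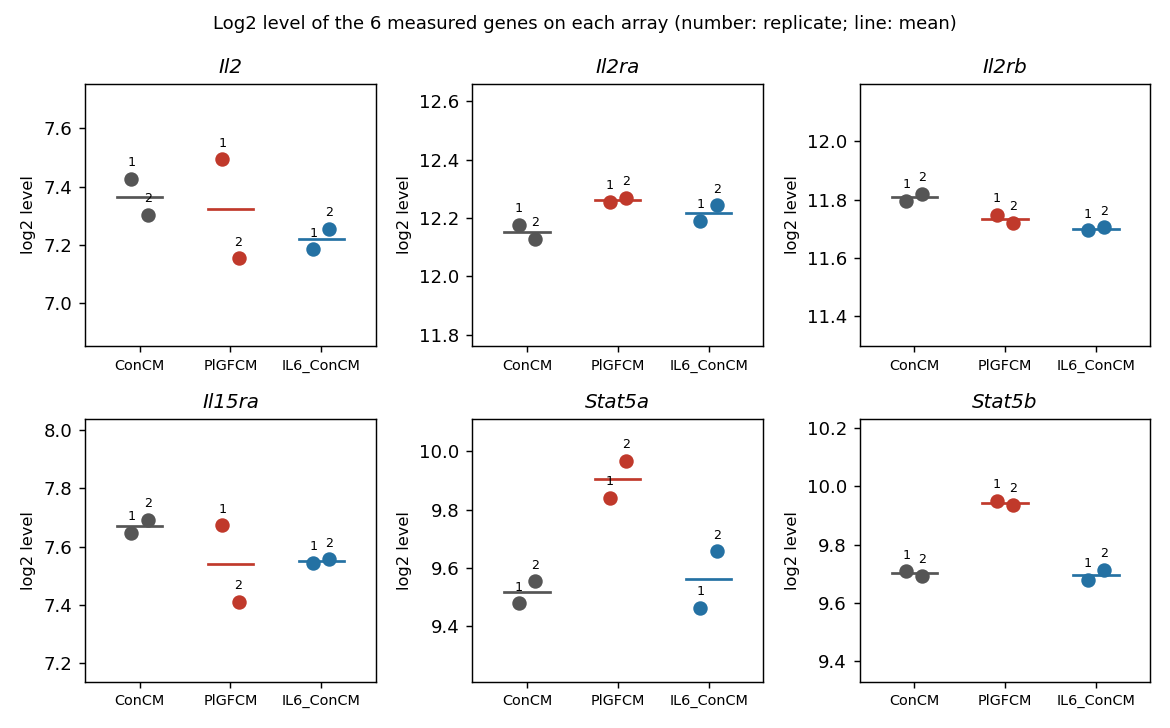
Log2 level (vertical axis, spanning the same width in each panel) of the 6 measured genes on each array, by medium. Points are arrays numbered by replicate and lines are means of 2 arrays. Both PlGFCM arrays lie above the other 4 for Stat5a, Stat5b and Il2ra, and the PlGFCM arrays of Il2 and Il15ra lie apart from each other.

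Il2, the ligand gene, had a log2 level of 7.43 and 7.30 with ConCM, 7.49 and 7.15 with PlGFCM and 7.19 and 7.26 with IL6_ConCM. The PlGFCM arrays held both the highest and the lowest value of the 6, and both IL6_ConCM arrays lay below both ConCM arrays. The log2 change was -0.04 in PlGFCM against ConCM, with a 95% interval of -0.31 to 0.22, and -0.15 in IL6_ConCM against ConCM, with an interval of -0.41 to 0.12. The former was 0.13 without PlGFCM replicate 2 and 0.02 without ConCM replicate 1, so its sign rests on single arrays. In PlGFCM against IL6_ConCM it was 0.10, with -0.065 without PlGFCM replicate 1 and 0.27 without PlGFCM replicate 2.

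Il2ra, the inducible alpha chain, differed little between the media. Its log2 level was 12.18 and 12.13 with ConCM, 12.26 and 12.27 with PlGFCM and 12.19 and 12.24 with IL6_ConCM. The groups did not overlap and ran from ConCM through IL6_ConCM to PlGFCM, but the gap between the nearest ConCM and IL6_ConCM arrays was smaller than the spread within either group. The log2 change in PlGFCM against ConCM was 0.11 ± 0.05 (SE; limma adjusted p = 0.556), which is 1.08-fold, and it was 0.10 without PlGFCM replicate 2. In PlGFCM against IL6_ConCM it was 0.05, and 0.040 without that array. In IL6_ConCM against ConCM it was 0.06, with a 95% interval of -0.04 to 0.17.

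Il2rb, the signalling beta chain, ran the other way. Its log2 level was 11.80 and 11.82 with ConCM, 11.75 and 11.72 with PlGFCM and 11.69 and 11.70 with IL6_ConCM. The groups did not overlap, with ConCM highest and IL6_ConCM lowest, and the gap between PlGFCM and IL6_ConCM was smaller than the spread within PlGFCM. The log2 change was -0.07 in PlGFCM and -0.11 in IL6_ConCM against ConCM, with 95% intervals of -0.18 to 0.04 and -0.22 to 0.0013. Without PlGFCM replicate 2 the former was -0.060. In PlGFCM against IL6_ConCM the log2 change was 0.035, and 0.049 without that array.

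Il15ra, which binds IL-15 and presents it to the beta and gamma chains, was at a log2 level of 7.65 and 7.69 with ConCM, 7.67 and 7.41 with PlGFCM and 7.54 and 7.56 with IL6_ConCM. PlGFCM replicate 2 was the lowest of the 6 arrays, and PlGFCM replicate 1 lay between the ConCM arrays. Both IL6_ConCM arrays lay below both ConCM arrays. The log2 change was -0.13 in PlGFCM and -0.12 in IL6_ConCM against ConCM, with limma adjusted p of 0.794 and 0.997, and the former was 0.0028 without PlGFCM replicate 2. In PlGFCM against IL6_ConCM it was -0.0090, and 0.12 without that array.

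**Figure D2:**
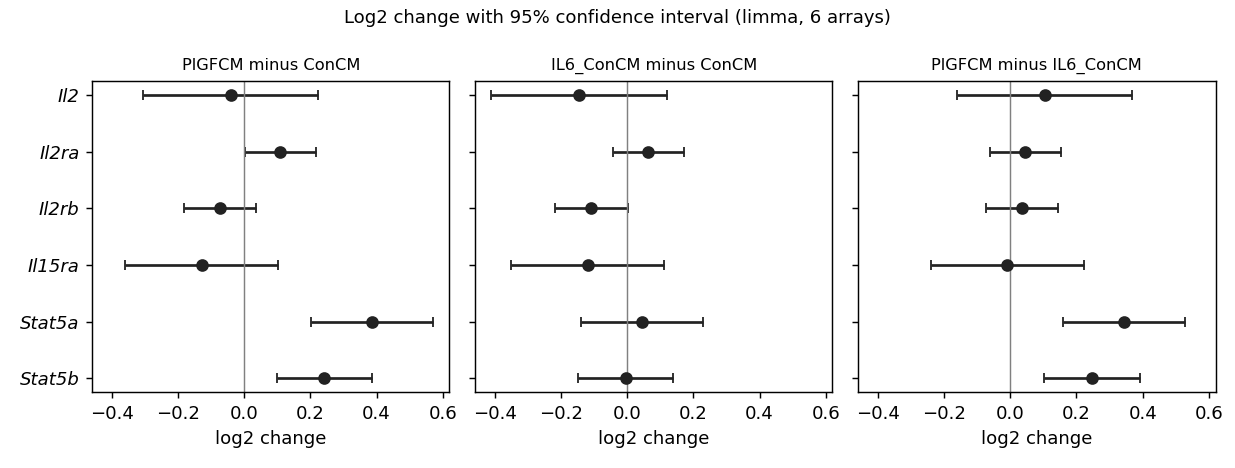
Log2 change of the 6 measured genes (horizontal axis) in each comparison, with 95% confidence intervals from limma on 6 arrays. The intervals of Stat5a and Stat5b lie above 0 in both comparisons with PlGFCM, and the interval of Il2ra starts at 0.0025 in PlGFCM against ConCM; these intervals are not adjusted for the number of genes tested.

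By the adjusted p of limma, 0 of the 6 measured genes passed in PlGFCM against ConCM, where 0.433% of all genes did, 0 in IL6_ConCM against ConCM, where 0.113% did, and 0 in PlGFCM against IL6_ConCM, where 0.0316% did. An unadjusted p under 0.05 was reached in PlGFCM against ConCM by 3 of the 6 genes, Il2ra, Stat5a and Stat5b, against 8.74% of all genes. It was reached by 0 of the 6 in IL6_ConCM against ConCM, against 5.62% of all genes, and by Stat5a and Stat5b in PlGFCM against IL6_ConCM, against 4.37%. The arrays of the compared groups did not overlap for 4 of the 6 genes in each comparison, against 38.2%, 34.1% and 30.1% of all genes. Both PlGFCM arrays lay above the other 4 for 3 of the 6 genes and for 7.08% of all genes. The members were chosen with earlier results of these data known, so these counts are given as descriptions. With 2 arrays a group, the smallest two-sided p of an exact permutation test is 0.333. The median log2 change of the 6 genes was 0.03, -0.06 and 0.07 in the comparisons as ordered above, beside -0.01, -0.0091 and -0.0030 over all genes.

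**Figure D3:**
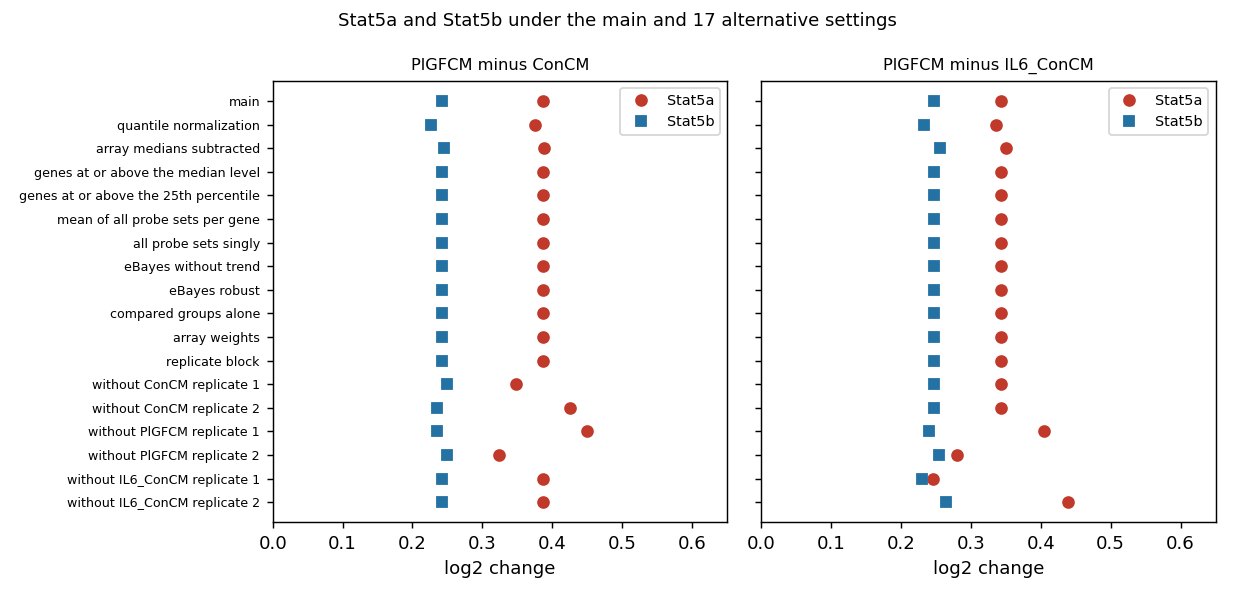
Log2 change (horizontal axis) of Stat5a (circles) and Stat5b (squares) in PlGFCM against ConCM and against IL6_ConCM, under the main setting and 17 alternatives (vertical axis). Against ConCM, Stat5a stays between 0.32 and 0.45 and Stat5b between 0.23 and 0.25.

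Over the 6 arrays, which share their media, Stat5a and Stat5b had a Pearson's r of 0.93, given as a description. Il2 and Il15ra had an r of 0.80, and Il2ra had an r of 0.80 with Stat5a and of -0.68 with Il2rb. Among 3729 named genes that spanned at least 0.5 log2 units, the most alike with Stat5a were Pou6f1, Met and Il1rn, with r of 0.98, 0.98 and 0.98. Those most alike with Stat5b were Skil, which encodes the SMAD repressor SnoN, Slc25a20 and Cpd, with r of 0.99, 0.99 and 0.99. For Il2rb they were Cnksr3, Iigp1 and Lair1, with r from 0.99 to 0.98, and for Il2, Olfr1031, H2-M1 and Sgpp2, with r from 0.98 to 0.96. For Il2ra they were Sdcbp2, Tas2r129 and Olfr118, with r of 0.99, 0.98 and 0.98, and for Il15ra, Phf11, Dcpp1 and Olfr1205, with r from 0.98 to 0.96. With so few arrays and so many genes, values this high are reached for every member, and probe sets of receptor families such as Olfr can bind related transcripts.

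The gene lists from here on were chosen with earlier results of these data known, so their counts and medians are given as descriptions. Some genes, among them Il7r, Il21 and Prdm1, are on more than 1 list. Among the genes that IL-2 and STAT5 are known to raise in T cells, 1 of 22 measured rose in PlGFCM against ConCM, where 0.352% of all genes did. In the same comparison 1 fell, beside 0.0812% of all genes, and 20 did not pass, with a median log2 change of 0.09. An unadjusted p under 0.05 was reached by 8 of the 22, 5 higher and 3 lower. Over all genes the share was 8.74%, with 4.19% higher and 4.54% lower. Il10, an immunoregulatory cytokine of several helper subsets, rose from 5.96 and 6.01 in ConCM to 7.12 and 7.14 in PlGFCM, by 1.14 ± 0.15 log2 units (SE; limma adjusted p = 0.00908). Gzmb, which encodes the cytotoxic protease granzyme B, fell by 0.81 on the log2 scale, from 9.09 and 8.89 to 8.23 and 8.13 (limma adjusted p = 0.00908). These 2 genes moved in opposite directions. Cish, a feedback inhibitor that STAT5 induces, is on the list and ran from 10.01 to 10.19 over the 6 arrays. Prdm1, which encodes the repressor BLIMP-1, was at a log2 change of 0.38 in PlGFCM and 0.36 in IL6_ConCM against ConCM (limma adjusted p = 0.113 and 0.258), and the kinase gene Pim2 was at -0.24 in PlGFCM (0.276). None of the 22 passed in IL6_ConCM against ConCM by limma, with 4 higher and 5 lower at an unadjusted p under 0.05, or in PlGFCM against IL6_ConCM, with 4 higher and 1 lower. Over all genes, 5.62% and 4.37% had such a p in these comparisons.

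Among the genes that the pathway is known to lower, 2 of 8 measured rose in PlGFCM against ConCM, where 0.352% of all genes did. The other 6 did not pass, and the median log2 change was 0.39 beside -0.01 over all genes. An unadjusted p under 0.05 was reached by 7 of the 8, 6 higher and 1 lower, beside 8.74% of all genes. Il17f, a Th17 cytokine, rose from 6.67 and 6.69 to 7.80 and 7.64, a log2 change of 1.04 ± 0.14 (SE; limma adjusted p = 0.0103). Il6ra, the IL-6 receptor chain, rose from 9.63 and 9.55 to 9.96 and 10.04, a log2 change of 0.41 ± 0.07 (SE; limma adjusted p = 0.0285). Il7r, the IL-7 receptor chain, was at -0.36 (limma adjusted p = 0.276) and Cxcr5, the follicular homing receptor, at 0.36 (0.179). In IL6_ConCM against ConCM, 0 of 8 passed by limma and the median was 0.19. There 3 had an unadjusted p under 0.05, all higher, beside 5.62% of all genes. In PlGFCM against IL6_ConCM, 0 of 8 passed by limma and the median was 0.12. There 2 were higher at an unadjusted p under 0.05, beside 4.37% of all genes. Without PlGFCM replicate 1 or without PlGFCM replicate 2, none of Il10, Gzmb, Il17f and Il6ra passed. Without ConCM replicate 1, Il10 passed and Gzmb, Il17f and Il6ra did not, and without ConCM replicate 2, Gzmb passed and the other 3 did not.

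The other cytokines and receptors of the common gamma chain gave 0 of 9 genes that passed in any comparison by limma. An unadjusted p under 0.05 was reached by 4, 3 and 1, beside 8.74%, 5.62% and 4.37% of all genes. The order is PlGFCM against ConCM, IL6_ConCM against ConCM and PlGFCM against IL6_ConCM. Il21r, the IL-21 receptor chain, was at 10.32 and 10.03 with ConCM, 10.63 and 10.61 with PlGFCM and 10.66 and 10.69 with IL6_ConCM. Il4ra, the IL-4 receptor chain, was at 11.17 and 11.04 with ConCM, 11.37 and 11.36 with PlGFCM and 11.45 and 11.51 with IL6_ConCM. For both receptor chains the ConCM arrays were the lowest. Against ConCM, the log2 change of Il21r was 0.45 in PlGFCM and 0.50 in IL6_ConCM (limma adjusted p = 0.0527 and 0.0586), and that of Il4ra was 0.26 and 0.37 (0.145 and 0.0550). Both comparisons use the same ConCM arrays. Il21, the cytokine itself, was at 0.74 and 0.83, with adjusted p of 0.271 and 0.339.

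Of the other JAK and STAT genes, 0 of 7 passed in any comparison by limma. Those with an unadjusted p under 0.05 numbered 2, 1 and 1, beside 8.74%, 5.62% and 4.37% of all genes. Jak2, a kinase of other cytokine receptors, was at a log2 level of 10.82 and 10.80 in ConCM against 11.18 and 11.10 with PlGFCM, and its change was 0.33 ± 0.07 (SE; limma adjusted p = 0.0791). Jak1, the partner of JAK3 at this receptor, was at 0.08 (0.752) and Stat3 at 0.18 (0.325). Among the adaptors and kinases downstream of the receptor, 0 of 10 passed in any comparison, and 0 had an unadjusted p under 0.05. Ptk2b, which encodes the kinase PYK2, had the smallest p of these in PlGFCM against ConCM, with a log2 change of 0.13.

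The factors that act on the Il2 promoter were counted separately as activators and repressors. Of the activators, 0 of 11 passed in any comparison by limma. Those with an unadjusted p under 0.05 numbered 2, 1 and 0, beside 8.74%, 5.62% and 4.37% of all genes. The AP-1 genes Junb and Jun were at 0.24 and 0.26 in PlGFCM against ConCM (limma adjusted p = 0.417 and 0.559), and Nfatc2 at 0.21 in IL6_ConCM against ConCM (0.785). Repressors with an unadjusted p under 0.05 numbered 3, 1 and 2, all higher, beside the same shares of all genes. By the adjusted p, 1 of 8 repressors rose in PlGFCM against ConCM, where 0.352% of all genes did, and 7 did not pass. This was Maf, a transcription factor of Th17 and follicular helper cells, which rose from 7.31 and 7.62 to 8.41 and 8.23, a log2 change of 0.85 ± 0.14 (SE; limma adjusted p = 0.0287). Leaving out any 1 of the 4 ConCM and PlGFCM arrays ended this call, but such a fit has 1 array in a group and less power for every gene. Among genes of T cell activation, 0 of 11 passed in any comparison by limma. Beside the same shares of all genes, 1, 2 and 1 of these 11 had an unadjusted p under 0.05. The median log2 changes were -0.03, -0.13 and 0.11. Of the 11 activation genes, 5, 1 and 9 had a positive change, beside 46.4%, 46.9% and 49.1% of all genes. Irf4, which rises with the strength of T cell receptor signals, had the smallest p of these, at 0.27 in PlGFCM against IL6_ConCM (limma adjusted p = 0.468), and was at 0.15 in PlGFCM against ConCM (0.525). In IL6_ConCM against ConCM the smallest p values were those of Nr4a1 and Cd69, at -0.20 and -0.23 (0.772 and 0.805).

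**Figure D4:**
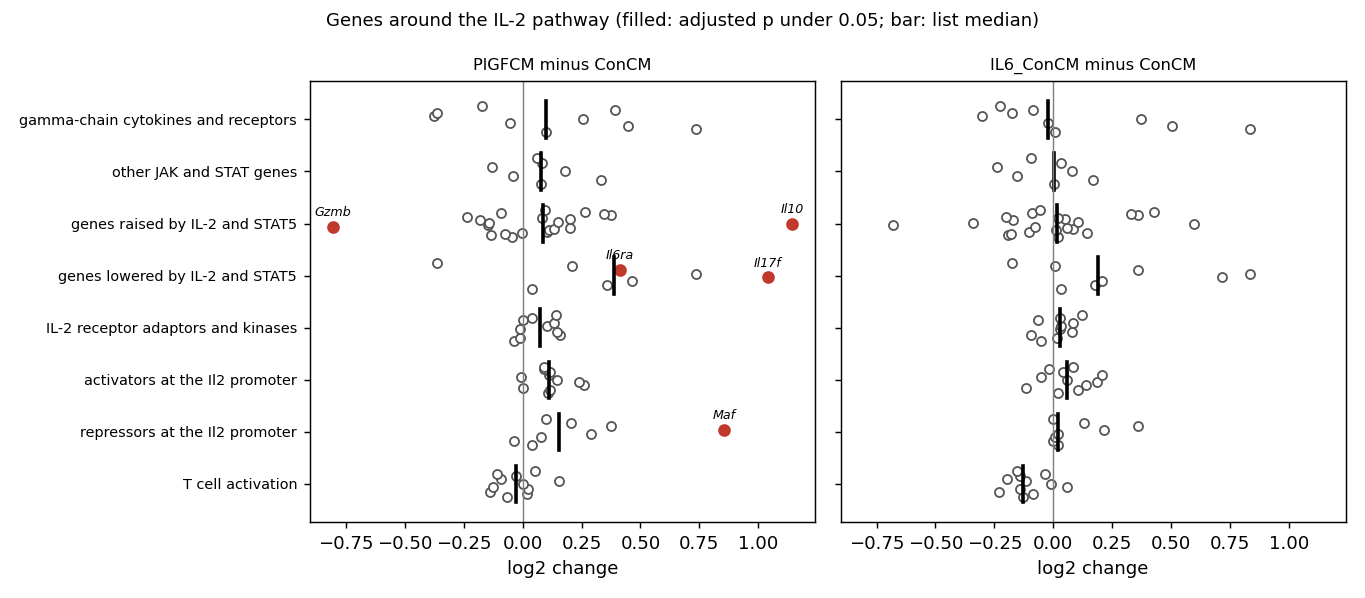
Log2 change (horizontal axis) of each measured gene on 8 lists around the IL-2 pathway, in PlGFCM and in IL6_ConCM against ConCM. Points are genes, filled where the adjusted p was under 0.05, and bars are list medians. The filled genes are Gzmb, Il10, Il6ra, Il17f and Maf, all of them in PlGFCM against ConCM.

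Regulatory T cells, which carry CD25 without activation, are part of a CD4+ selection. Of 9 regulatory T cell markers, 0 passed in any comparison by limma. An unadjusted p under 0.05 was reached by 1 in each, beside 8.74%, 5.62% and 4.37% of all genes. Against ConCM this was Tigit, with log2 changes of 0.57 in PlGFCM and 0.77 in IL6_ConCM (limma adjusted p = 0.265 and 0.153). In PlGFCM against IL6_ConCM it was Gpr83, at 0.40 (0.735). A positive log2 change was found for 8 of 9 in PlGFCM against ConCM, where 46.4% of all genes had one, for 4 of 9 in IL6_ConCM against ConCM, where 46.9% did, and for 7 of 9 in PlGFCM against IL6_ConCM, where 49.1% did. Their mean log2 level was 8.47 and 8.75 with ConCM, 8.88 and 8.69 with PlGFCM and 8.53 and 8.80 with IL6_ConCM, so the groups overlapped. Foxp3, their defining factor, ran from 10.68 to 11.08 over the 6 arrays. For the 9 B cell markers the mean was 6.53 to 6.59 in ConCM, 6.55 to 6.56 in PlGFCM and 6.52 to 6.57 in IL6_ConCM. Ms4a1 and Fcer2a fell in PlGFCM against ConCM, where 0.0812% of all genes did. At an unadjusted p under 0.05, 2 of the 9 were higher and 2 lower, beside 8.74% of all genes. A positive log2 change was found for 6 of the 9 and the median was 0.21, with Cd79b at 0.33 and Pax5 at 0.31 (limma adjusted p = 0.492 and 0.455). For 10 myeloid and dendritic cell markers the mean was 5.96 to 6.07, 6.02 to 6.15 and 5.99 to 6.04. Clec7a fell in PlGFCM against ConCM, Cd14 was at 0.67 and Adgre1 at 0.38 (limma adjusted p = 0.0806 and 0.334), and the median was 0.06. Of these 10, 2 were higher and 1 lower at an unadjusted p under 0.05, beside the same 8.74% of all genes. For 10 NK and CD8 T cell markers, of which Gzma rose and Eomes fell against ConCM in both other media, the mean was 6.06 to 6.15, 5.94 to 6.09 and 6.03 to 6.15. Over all genes, 0.352% rose and 0.0812% fell in PlGFCM, and 0.0857% and 0.0271% in IL6_ConCM. In each of these comparisons, 2 of the 10 were higher and 1 lower at an unadjusted p under 0.05, beside 8.74% and 5.62% of all genes. For the 3 measured markers of erythroid cells and platelets the mean was 4.52 to 4.68, 4.57 to 4.65 and 4.59 to 4.75. Without PlGFCM replicate 1 or without PlGFCM replicate 2, none of Ms4a1, Fcer2a, Clec7a, Gzma and Eomes passed in PlGFCM against ConCM. In that comparison Ms4a1, Fcer2a, Clec7a and Gzma did not pass without ConCM replicate 2, nor Ms4a1 without ConCM replicate 1. In IL6_ConCM against ConCM, Gzma did not pass without ConCM replicate 2, nor Eomes without IL6_ConCM replicate 2. Array levels have no true 0, so absence of a marker cannot be read from them, and the part of other cells in the values of Stat5a and Stat5b was not tested.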

How the data were processed

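Total RNA of 6 samples was hybridised to Affymetrix whole-transcript arrays. The values deposited by the authors are log2 levels of probe sets, and the submitters' processing notes name Transcriptome Analysis Console. The sources used here do not give its version, background correction, normalization or genome build, and the values themselves show the log2 scale. No further normalization was applied. Of 41345 probe sets, the platform annotation gives 23521 a single symbol and 1814 several, and 16010 are unnamed here. Gene IDs of 23328 matched the RefSeq table, which changed 0 symbols. The brightest single-symbol probe set over the 6 arrays stood for a gene, for 22180 genes, and low levels were not filtered.

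limma 3.58.1 in R 4.3.3 (lmFit, eBayes with an intensity trend, 3 residual degrees of freedom, median prior 8.14) was fitted to all arrays and tested on simulated data. Arrays give no read depth, so their number limits the precision. Promoters came from RefSeq (GRCm38.p6), matching 7 of the 8 genes. Members and gene lists were chosen with earlier results of these data known. Named were the 8 genes, list genes that passed or were among the 4 smallest p of their list, and the 3 most alike genes per member; Cish and the array checks Xist, Uty, Kdm5d and Eif2s3y were named after their values were seen. Over all genes, deviations of same-numbered replicates correlated weakly (r from -0.04 to 0.11, highest for ConCM with IL6_ConCM), and no pairing was used. The mean of the regulatory T cell markers was higher on replicate 2 than on replicate 1 in ConCM and IL6_ConCM, and lower in PlGFCM. Whether same-numbered arrays share a preparation is not known. Alternatives were quantile normalization, median subtraction, filters on low levels, other uses of probe sets, other variance models, fewer arrays and array weights.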

Additional observations from a re-analysis of the deposited data

How the results depend on the processing

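None of the 6 measured genes passed by limma in any of the 3 comparisons under any of the 17 alternatives, and 298 log2 changes of members kept their sign and side of the threshold while 8 turned sign. The lowest adjusted p was that of Stat5a in PlGFCM against ConCM where lower-level genes were filtered out at the median, at 0.0507, and over the alternatives it ran to 0.525 without an intensity trend. The 8 sign changes were all in fits with 1 array left out, where small changes crossed 0. Over these fits, the change in PlGFCM against ConCM ran from -0.21 to 0.13 for Il2 (also 0.021 without ConCM replicate 1) and from -0.26 to 0.0028 for Il15ra. In IL6_ConCM against ConCM it ran from -0.053 to 0.14 for Stat5a and from -0.022 to 0.012 for Stat5b (also 0.0021 without ConCM replicate 1). In PlGFCM against IL6_ConCM it ran from -0.065 to 0.27 for Il2 and from -0.14 to 0.12 for Il15ra. With the replicate number as a block, Stat5a had an adjusted p of 0.0609 in PlGFCM against ConCM and 0 members passed; the numbers were not shown to pair the arrays. Over all genes, the count that passed was 96, 25 and 7 in the comparisons PlGFCM against ConCM, IL6_ConCM against ConCM and PlGFCM against IL6_ConCM, and ranged over the alternatives from 5 to 174, from 0 to 53 and from 0 to 10. The lowest counts of the first 2 comparisons came from all probe sets tested singly, and the highest of all 3 from filters on low levels. Without an intensity trend, and with all probe sets tested singly, none of Il10, Gzmb, Il17f, Il6ra, Maf, Ms4a1, Fcer2a, Clec7a, Eomes and Gzma passed in any comparison. The replicate block ended the calls of Maf, Il6ra and Clec7a in PlGFCM against ConCM, and subtracting array medians that of Clec7a. The cause was not tested.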
